A study of Homo sapiens with 8 samples.

Results

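The genes described here encode the factors that start and extend protein synthesis, the eukaryotic initiation factors (eIF) and elongation factors (eEF). They were taken by symbol, as the genes of the table whose symbol starts with EIF1 to EIF6 or EEF, without pseudogenes and antisense genes. Of 80 such symbols, 59 were kept as members, out of 16153 genes in the table, and all 59 passed the filter on low values (at least 1 scaled CPM in at least 2 libraries). Left out were 17 pseudogene symbols, 2 antisense symbols, and EIF4EBP1 and EIF4EBP2, whose symbols end in P and a number although they encode proteins. EIF4EBP1 and EIF4EBP2 are given below as neighbours of the family and not counted as members. EIF4A1, EEF1G and EIF4EBP3 were not among the 80 symbols and were not analysed here, so shares and ranks below leave them out. EIF1AY is counted without a level.

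RNA was measured in HMEC-1, an endothelial line from the small vessels of human skin that a viral large T antigen made immortal. All cultures grew on gelatin-coated coverslips in medium with 10% serum, hydrocortisone and epidermal growth factor (EGF). The culture temperature was 37 °C and the storage temperature 6 °C for all 8 samples. Of the 8 libraries, 3 were of cells exposed to microgravity in an incubator aboard the International Space Station (space_microg). Another 2 were of cells in that incubator's centrifuge, which supplied 1 g (space_1g), and 3 were of controls kept in a facility of the home laboratory (ground). Flown cells were fixed in orbit and all groups carry the same untreated line, so space_microg against ground differs in gravity and in everything else about the flight, space_1g against ground in the flight with gravity replaced, and space_microg against space_1g in gravity within the flight. Whether replicates were separate cultures is not stated in the labels, and the p-values therefore cover the spread among libraries only, which may be technical.

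In translation, a small ribosomal subunit carrying eIF1, eIF1A, eIF3, eIF5 and the eIF2 complex with the initiator tRNA is brought to the mRNA cap by eIF4F and scans to the start codon, where eIF5B joins the large subunit. The exchange factor eIF2B reloads eIF2 with GTP, and 4 stress kinases block that step by phosphorylating the eIF2 alpha subunit. In elongation, eEF1A delivers each aminoacyl-tRNA, eEF1B recharges eEF1A, and eEF2 moves the ribosome along. Endothelial cells, like other growing cells, tie the output of this machinery to nutrients and growth factors through the kinase mTORC1.

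All 13 endothelial markers in the list used to check the label were present, from CDH5 and PECAM1 to VWF. CLDN5 and ESAM were low, at 0.263 to 9.93 and 4.55 to 8.01 scaled CPM. The summed level of the 13 was 1454 to 2150 in space_microg, 1616 to 1702 in space_1g and 2018 to 2500 in ground. Both space_1g libraries thus lay below every ground library. Of the marker lists for other cells, 1 of 6 leukocyte genes was in the table (CD14, 1.04 to 2.89), 4 of 7 fibroblast genes (summed 109 to 305, with COL3A1 at 0 in ground replicate 3) and 3 of 5 epithelial genes (keratins, 257 to 371). In bulk RNA, fewer cells of a type and less RNA per cell cannot be told apart. Values below are scaled CPM, read counts that the authors corrected for library size and composition, and libraries held 24248964 to 35388757 reads in the listed genes. Over all genes, space_1g replicate 1 and ground replicate 3 stood apart from the other 6 libraries on the first principal component. Their scores were 60.7 and 64.7 against -31.1 to 1.51, and that component held 61.9% of the variance. Results are therefore also given without these libraries. Where a space_1g library is left out, the space_1g group is the other library alone.

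No member differed between groups past the adjusted threshold. In limma with Benjamini-Hochberg adjustment over 16103 genes, 0 members and 0.0% of all genes were called at an adjusted p of 0.05 in each of the 3 comparisons. At an unadjusted p of 0.05, 2 members passed in space_microg against ground (4.32% of all genes did), 1 in space_1g against ground (1.55%) and 0 in space_microg against space_1g (1.32%). These were EEF1B2, higher in space_microg, EIF3CL, lower in space_microg, and EIF1, higher in space_1g; EIF3CL fell outside the naming rule and was named after its values were seen. On recovered reads, edgeR called 0 genes in each comparison, with 2, 1 and 0 members at an unadjusted p of 0.05. DESeq2 called 3, 0 and 0 genes, none of them members, with 3, 2 and 1 members at the unadjusted level. The values below are therefore a description of where each factor lay.

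The family took 1.67% to 2.25% of a library's total, and EEF1A1 alone 0.567% to 1.056%. Per kilobase of exon, EEF1A1 stood first with a mean of 1490 scaled CPM per kb, followed by EEF2 with 633. The helicase EIF4A2 had 249, the scaffold-like EIF4G2 had 241, EEF1B2 had 188 and EIF3E had 170. Among members with a mean of at least 5 scaled CPM, EEF1A2, EIF2AK2, EIF3E, EIF1 and EEF1B2 varied most over the 8 libraries, with SDs on the log2 scale of 0.63, 0.42, 0.40, 0.38 and 0.38. EIF4E2, EIF3A, EIF4ENIF1, EIF2S3 and EIF4G3 varied least, with SDs of 0.078 to 0.13. The lowest EIF3A value was 316.8 and the highest 378.9.

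**Figure D1:**
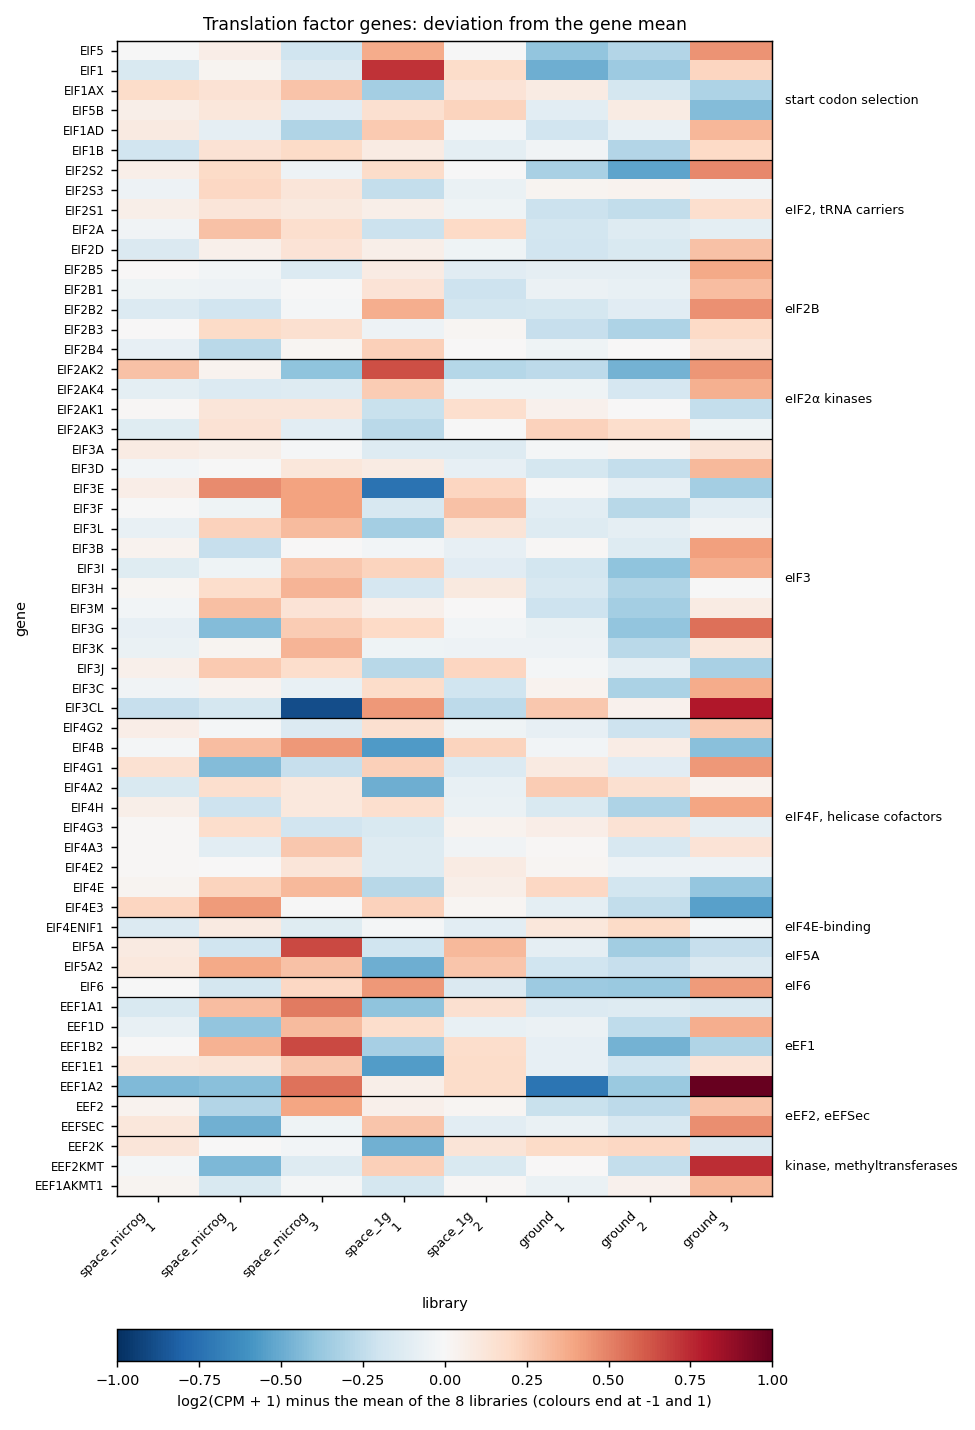
Rows are members ordered by role (EIF1AY not drawn), columns are the 8 libraries, and colour is log2(CPM + 1) minus the gene's mean over the libraries. Space_1g replicate 1 and ground replicate 3 share high values of EIF5, EIF2B2, EIF2AK2 and EIF6 and low values of EIF3E, EIF4B, EIF1AX and EIF4E.

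The largest shared pattern among members did not follow the groups, and it ran through all genes at similar shares. Space_1g replicate 1 and ground replicate 3 held both highest values in 17 of 59 members (28.8%, against 23.6% of all genes) and both lowest values in 10 (16.9%, against 21.5%). The high set included 4 of the 5 eIF2B subunits, EIF1, EIF5, EIF6, EIF4G1, EIF4G2, EIF4H and the kinases EIF2AK2 and EIF2AK4. The low set included EEF1A1, EIF3E, EIF3J, EIF4B, EIF4E, EIF4E2, EIF1AX, EIF2AK1 and EEF2K. On the members alone the first component held 50.1% of the variance and placed the same libraries at 1.92 and 2.59, with the other 6 between -1.29 and -0.22.

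In space_microg against ground, 37 of 59 members were higher (47.0% of all genes were) and 22 lower, with a median log2 difference of 0.072 beside -0.022 over all genes. In 9 members every space_microg library lay above every ground library, which held for 7.88% of all genes; these were EEF1B2, EIF1AX, EIF2A, EIF3E, EIF3F, EIF3H, EIF3J, EIF4E3 and EIF5A2. In 1 member, EIF3CL, every space_microg library lay below, as in 6.53% of all genes. Of the libraries that stood apart, only ground replicate 3 was in these groups. Without it, which left ground replicates 1 and 2, 45 were higher and 14 lower with a median of 0.188. The groups then did not overlap in 22 higher and 4 lower members, where 16.7% and 16.6% of all genes did so. Without ground replicate 1 the split was 30 to 29 with a median of 0.0013, and without ground replicate 2 it was 28 to 31 with a median of -0.012. The direction of the family's median thus rested on single ground libraries. With the values scaled to plain totals, by median of ratios or by quantiles, the median stayed between 0.068 and 0.087.

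In space_1g against ground, 39 members were higher (51.2% of all genes were) and 20 lower, with a median of 0.036 beside 0.0061 over all genes. EIF4E3 and EIF5B were above every ground library in both space_1g libraries (4.94% of all genes), and EIF2S3, EIF3A, EIF4A2 and EIF4ENIF1 were below (5.73%). Leaving out ground replicate 2 gave a median of -0.034, and leaving out space_1g replicate 1 gave -0.0076. The median was 0.124 when both libraries that stood apart were left out, which left space_1g replicate 2 alone in its group. In space_microg against space_1g, 35 members were higher (46.6% of all genes were) and 24 lower, with a median of 0.054 beside -0.025. EIF1AX, EIF2S1, EIF2S3 and EIF3A did not overlap in the higher direction (7.24% of all genes), and EIF1, EIF2AK4 and EIF5B in the lower (6.91%). The median was -0.0039 without space_1g replicate 2. The comparisons share libraries and are not independent of each other.

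**Figure D2:**
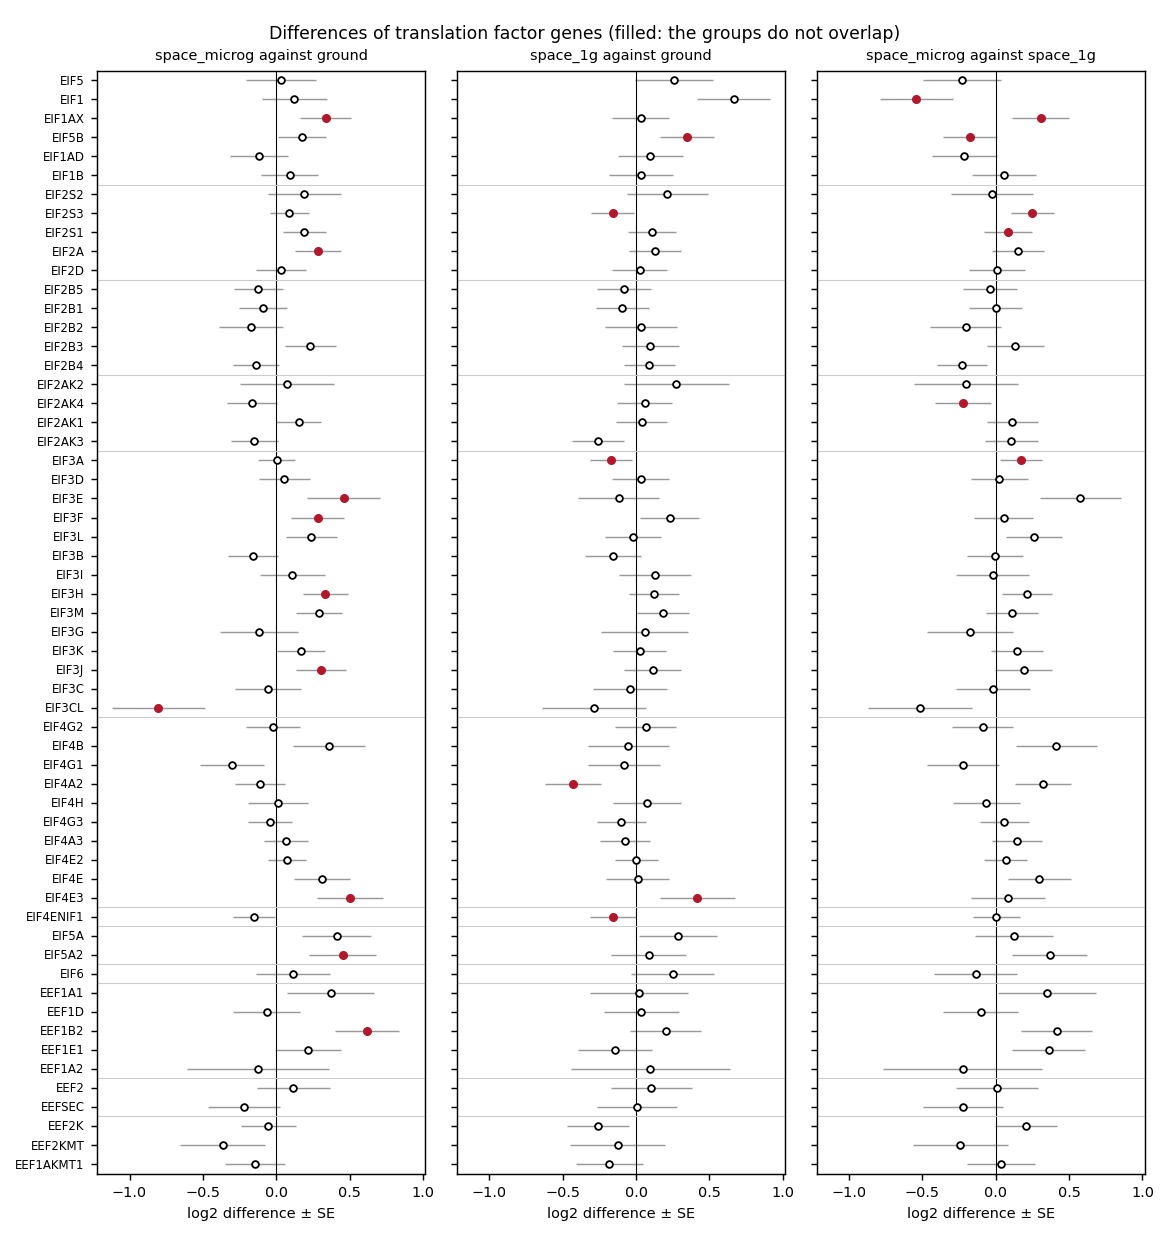
Each panel is a comparison, each row a member, the x axis the log2 difference with its standard error from limma, and filled points mark groups that do not overlap. EEF1B2 lies farthest right in the panel of space_microg against ground (0.62) and EIF1 in the panel of space_1g against ground (0.67).

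Some members share a sequence at the start of their transcripts. mRNAs of the translation machinery often begin with a cytosine followed by a run of pyrimidines, the oligopyrimidine start (TOP), which mTORC1 signalling uses to control their translation. RefSeq start sites (GRCh38.p14) were found for 47 of 59 members, and 12 of these (25.5%) began at a listed start with C followed by at least 4 C or T, against 7.32% of 10198 genes of the table and 5.14% of all 27305 RefSeq genes. EIF2AK1, EIF3E, EIF3H, EEF1D, EIF3A, EEF1AKMT1, EEF2KMT, EIF3CL, EIF3G, EIF2S2, EEF1A2 and EIF3L had no entry. The start class, and the motifs scanned beside it, were chosen after values of the members had been seen. The windows below run from 10 bases before the start to 20 bases of transcript, 5′ to 3′ on the coding strand, with the pyrimidine run in capitals; they are shown because the 12 genes are compared as a class.
EEF1A1: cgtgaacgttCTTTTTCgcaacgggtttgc
EEF1B2: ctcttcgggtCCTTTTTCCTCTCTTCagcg
EEF2: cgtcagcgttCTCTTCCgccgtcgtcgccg
EIF2A: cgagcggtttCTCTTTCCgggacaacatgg
EIF2D: ccagccgggcCCTTTTCgcggccgggcccc
EIF2S3: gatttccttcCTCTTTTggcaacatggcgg
EIF3D: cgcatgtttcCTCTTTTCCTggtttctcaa
EIF3F: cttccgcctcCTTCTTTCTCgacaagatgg
EIF3K: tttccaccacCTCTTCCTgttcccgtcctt
EIF3M: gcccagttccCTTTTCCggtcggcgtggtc
EIF4A2: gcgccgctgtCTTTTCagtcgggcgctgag
EIF4B: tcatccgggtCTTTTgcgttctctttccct
EIF1: ccgcccctctgccccagtcactgagccgcc
EIF4E: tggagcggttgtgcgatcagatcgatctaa
The last 2, shown for contrast, hold no such start. EEF1B2 (chr2:206159885-206159914, plus strand) had the longest run with 16 bases, EEF1A1 (chr6:73521013-73521042, minus strand) had 7 and EIF4B (chr12:53006446-53006475, plus strand) had 5.

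Members with an oligopyrimidine start had a median log2 difference of 0.226 in space_microg against ground, with 11 of 12 higher, while the other 35 matched members had 0.066 with 20 higher. In space_microg against space_1g the medians were 0.148, with 12 of 12 higher, and -0.00022, with 17 of 35 higher. In space_1g against ground they were 0.028, with 9 of 12 higher, and 0.058. The 12 of 12 in space_microg against space_1g became 8 without space_microg replicate 3. It became 9 without space_1g replicate 2 and 10 without space_1g replicate 1. Without space_1g replicate 1 and ground replicate 3 the class median was 0.231 in space_1g against ground, with 10 of 12 higher. In space_microg against ground it was 0.275. The 0.231 rests on space_1g replicate 2 alone, so how close the flight groups lay cannot be told from it. Over all 745 tested genes with such a start the medians were 0.070, 0.058 and 0.013 in the same order, so the class lay above 0 outside the family too, by less. Without members and ribosomal protein symbols the 685 remaining genes had medians of 0.046, 0.032 and 0.0083. These are descriptions and carry no test.

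By library, the class median deviation was -0.030, 0.188 and 0.254 in space_microg, -0.189 and 0.013 in space_1g, and -0.122, -0.194 and -0.0027 in ground. Space_microg replicates 2 and 3 stood highest, while replicate 1 lay below ground replicate 3, so the groups overlapped. Members with other starts, 34 without EIF1AY, were at 0.020, 0.017 and -0.0061, at 0.113 and -0.032, and at -0.071, -0.171 and 0.202. Ground replicate 3 was thus the highest library for those and not for the oligopyrimidine class. Without space_microg replicate 3 the class median against ground was 0.107, and against space_1g it was 0.306 without space_1g replicate 2 and 0.088 without space_1g replicate 1. Without both libraries that stood apart the other members had 0.118 in space_microg against ground. They had 0.078 in space_1g against ground, with space_1g replicate 2 alone in its group.

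**Figure D3:**
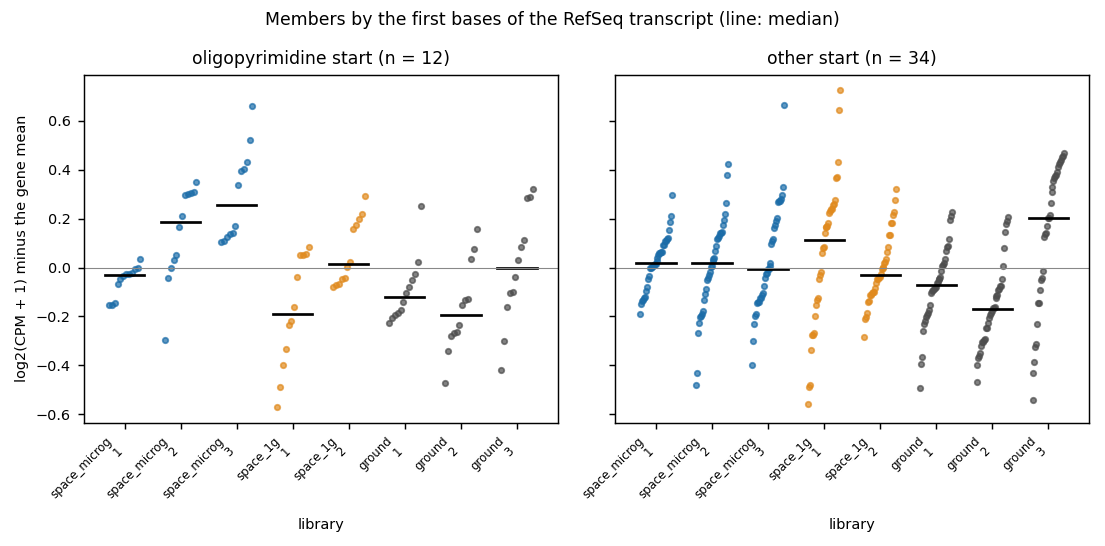
Points are members, split by the first bases of the RefSeq transcript, the y axis is log2(CPM + 1) minus the gene's mean over the 8 libraries, and lines are medians. In the left panel (n = 12) the medians are highest in space_microg replicates 2 and 3 (0.188 and 0.254), and in the right panel (n = 34) in ground replicate 3 (0.202).

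The E-box CACGTG, to which MYC binds, was found on either strand of the 300-base window from 250 before to 50 after the start in 13 of 47 members (27.7%, against 12.5% of the genes of the table). Members with and without it had medians of 0.092 and 0.080 in space_microg against ground, 0.025 and 0.062 in space_1g against ground, and 0.133 and 0.017 in space_microg against space_1g. The interferon-stimulated response element was scanned as GAAA, any 2 bases and then GAAACT on both strands of the same window. It was found in 1 of these 47 members (2.13%), EIF2AK2, against 0.412% of the genes of the table.

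Among the 7 factors of scanning and start codon choice, EIF1, which holds the scanning ribosome open until the start codon is met, varied most. It stood at 220.3, 249.1 and 220.9 in space_microg, 404.3 and 277.2 in space_1g, and 173.6, 190.1 and 283.6 in ground. Space_1g replicate 1 was the highest library and both space_1g libraries lay above all 3 space_microg libraries, while ground replicate 3 lay above space_1g replicate 2. EIF1 differed by 0.67 ± 0.25 (log2, SE) between space_1g and ground (limma, adjusted p = 1.00) and by -0.54 ± 0.25 between space_microg and space_1g (adjusted p = 0.912). Without space_1g replicate 1 these were 0.39 and -0.27, and without space_1g replicate 2 they were 0.94 and -0.81.

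EIF5, the GTPase-activating partner of eIF2, was at 347.7, 364.8 and 303.5 in space_microg, 450.6 and 348.0 in space_1g, and 265.3, 284.6 and 477.3 in ground. It shared its 2 highest libraries, ground replicate 3 and space_1g replicate 1, with EIF2AK2 and EIF6. EIF1AX, which encodes eIF1A, was at 89.4, 86.6 and 95.5 in space_microg, 61.8 and 86.1 in space_1g, and 83.3, 69.3 and 63.0 in ground. All space_microg values of EIF1AX thus lay above all others, by 0.34 ± 0.17 against ground and 0.31 ± 0.19 against space_1g, though space_1g replicate 2 came close to the lowest of them and the difference from space_1g was 0.069 without space_1g replicate 1. EIF5B, the GTPase of subunit joining, was 70.7, 73.4 and 62.6 in space_microg, 76.0 and 79.3 in space_1g, and 63.0, 71.7 and 49.99 in ground. The space_1g libraries of EIF5B were the highest of the 8, with 0.35 ± 0.18 against ground, or 0.21 without ground replicate 3.

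Of the eIF2 subunits, which carry the initiator tRNA, EIF2S3 and EIF2S1 varied little and EIF2S2 more, with SDs of 0.13, 0.16 and 0.31 on the log2 scale. EIF2S3 (gamma subunit) was 168.2, 201.1 and 189.6 in space_microg, 147.5 and 165.7 in space_1g, and 176.9, 178.2 and 169.4 in ground. Space_1g was the lowest group without overlap on either side, at -0.16 ± 0.15 against ground and with space_microg higher by 0.25 ± 0.15. Without space_1g replicate 1 these were -0.076 and 0.16. EIF2A, which encodes an alternative tRNA carrier and is not the eIF2 alpha gene, was 93.9, 118.2 and 108.4 in space_microg, 82.6 and 110.6 in space_1g, and 84.5, 87.9 and 89.6 in ground. It differed by 0.28 ± 0.16 between space_microg and ground. The alpha subunit gene EIF2S1 had 156 ± 3.25 (SD, n = 3) in space_microg, 148 ± 7.14 (n = 2) in space_1g and 138 ± 23.3 (n = 3) in ground. EIF2S2, the most abundant of the 5, ranged from 163.0 in ground replicate 2 to 329.1 in ground replicate 3, so that ground held both its extremes.

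Of the 5 subunits of eIF2B, EIF2B1, EIF2B2, EIF2B4 and EIF2B5 had their 2 highest values in space_1g replicate 1 and ground replicate 3. The same held for 23.6% of all genes. EIF2B5, the catalytic subunit and the most abundant, was 67.2, 65.7 and 60.8 in space_microg, 71.0 and 62.0 in space_1g, and 63.1, 62.8 and 87.5 in ground. Ground replicate 3 stood above 7 libraries that lay close together.

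EIF2AK2 encodes PKR, the kinase that double-stranded RNA switches on and interferon induces. Its interferon response element spans the start site. The element is printed here, in capitals, because it was the only match among the 47 members with RefSeq start sites. The window lies at chr2:37156963-37157006 on the minus strand of GRCh38.p14.
EIF2AK2: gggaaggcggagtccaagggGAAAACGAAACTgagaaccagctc
EIF2AK2 was at 247.3, 206.1 and 152.5 in space_microg, 315.1 and 165.1 in space_1g, and 168.3, 145.2 and 273.6 in ground. The groups overlapped fully, with space_1g replicate 1 and ground replicate 3 highest. EIF2AK4, which encodes the amino-acid sensor GCN2, had 180.6 and 193.2 in the same libraries and 134.6 to 146.2 in the other 6. EIF2AK1, the haem-regulated kinase, showed the opposite order, with 86.5 and 85.6 there and 101.3 to 114.0 elsewhere. EIF2AK3, which encodes the endoplasmic reticulum kinase PERK, was 43.0 ± 4.65 (n = 3) in space_microg, 39.8 ± 5.25 (n = 2) in space_1g and 47.8 ± 4.77 (n = 3) in ground. Its difference between space_1g and ground was -0.26 ± 0.18, and -0.13 without space_1g replicate 1.

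The 14 genes of eIF3, the scaffold that binds the small subunit, did not move together. In space_microg against ground, 10 were higher and 4 lower, with a median of 0.138. EIF3E was 267.3, 354.2 and 337.4 in space_microg, 152.6 and 296.0 in space_1g, and 253.7, 240.6 and 201.1 in ground. All space_microg libraries of EIF3E lay above all ground libraries (0.46 ± 0.25), while the space_1g libraries were the lowest and the third highest of the 8. The 0.58 ± 0.28 against space_1g was 0.10 without space_1g replicate 1.

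EIF3H was 148.4, 165.3 and 184.9 in space_microg, 130.1 and 156.8 in space_1g, and 130.7, 118.4 and 145.7 in ground, which gave 0.33 ± 0.15 against ground without overlap. EIF3M followed with 0.29 ± 0.16 and some overlap, and EIF3J, a loosely bound subunit, with 0.30 ± 0.17 and none. EIF3F was 226.5, 219.9 and 300.02 in space_microg, 202.7 and 277.6 in space_1g, and 210.6, 186.5 and 210.7 in ground. Its space_microg replicate 2 lay only a little above ground, and space_1g against ground gave 0.23 ± 0.20. That difference was 0.0030 without space_1g replicate 2 and 0.45 without space_1g replicate 1.

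EIF3A, the largest subunit and the one with the most reads of the 14, was 367.7, 361.9 and 344.4 in space_microg, 317.8 and 316.8 in space_1g, and 342.0, 351.0 and 378.9 in ground. Both space_1g values were the lowest of the 8, with -0.17 ± 0.14 against ground. EIF3B, EIF3D, EIF3G and EIF3I had their highest value in ground replicate 3, at 252.7, 333.1, 192.6 and 234.7. EIF3C and EIF3CL are near-identical copies whose reads the counting could split, so both are uncertain. EIF3CL stood at 0.94, 1.02 and 0.235 in space_microg, 2.08 and 0.906 in space_1g, and 1.75, 1.35 and 2.97 in ground, so that space_1g overlapped both other groups. In these libraries a count of 0 would allow up to 0.0855 to 0.12, a limit for counting error only.

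**Figure D4:**
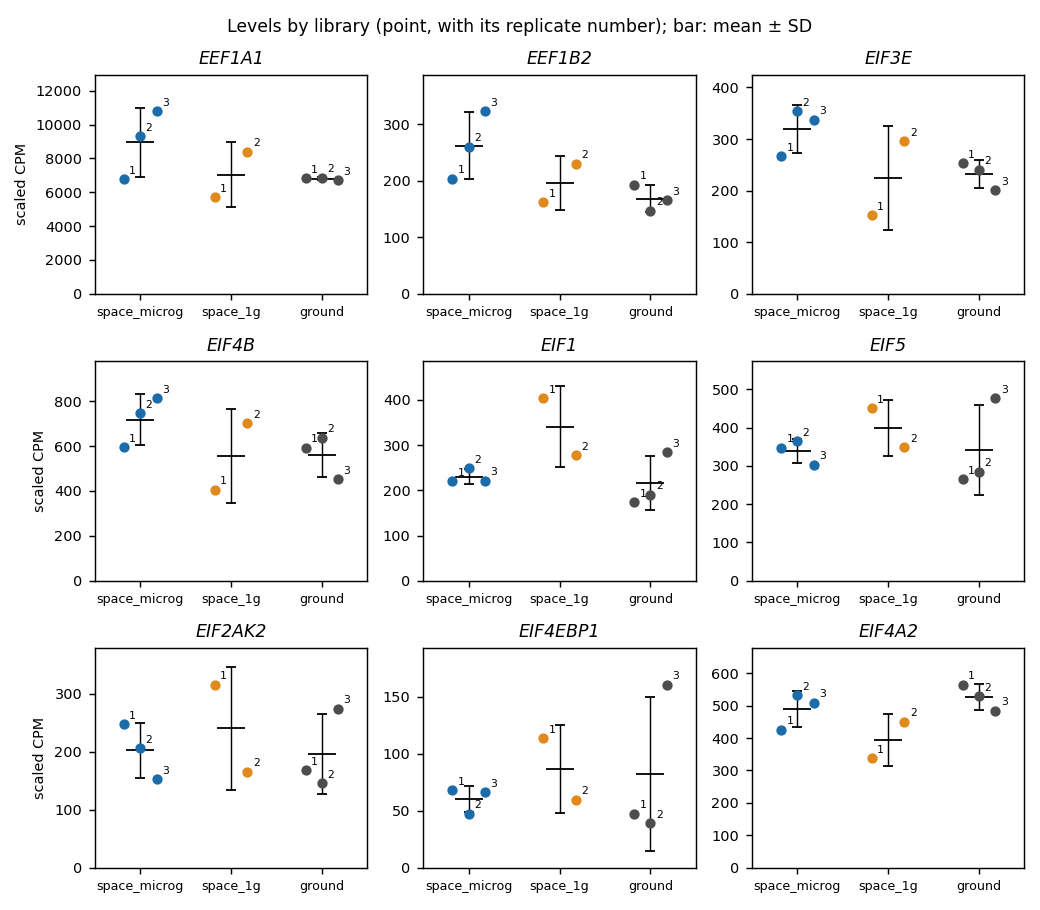
Panels are genes, the y axis is scaled CPM from 0, points are libraries with their replicate number, and bars are the mean and SD (n = 3, 2 and 3). EEF1B2 and EIF3E lie above all ground libraries in the 3 space_microg libraries, and EIF5, EIF2AK2 and EIF4EBP1 are highest in space_1g replicate 1 and ground replicate 3.

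Of the factors that bind the cap and unwind the mRNA, EIF4B, the cofactor of the eIF4A helicase, varied most among those above 5 scaled CPM. It was 593.9, 745.1 and 814.0 in space_microg, 406.1 and 702.3 in space_1g, and 592.2, 636.0 and 451.1 in ground. Space_1g replicate 1 and ground replicate 3 were the lowest libraries, and the 0.41 ± 0.28 between space_microg and space_1g was 0.019 without the former. EIF4A2 was 425.3, 532.0 and 509.5 in space_microg, 337.2 and 450.4 in space_1g, and 564.4, 529.0 and 484.5 in ground. Both space_1g libraries lay below ground, by -0.43 ± 0.19 (limma, adjusted p = 1.00), and space_microg was higher than space_1g by 0.32 ± 0.19 with overlap. Without space_1g replicate 1 these were -0.22 and 0.11. The paralogue EIF4A3, a core part of the exon junction complex, held 97.1 to 131.7 over all libraries.

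Among the cap-binding paralogues, EIF4E had means of 63.7 ± 6.76 in space_microg, 51.8 ± 8.71 in space_1g and 51.8 ± 11.4 in ground. EIF4E2, which encodes the translation-repressing homologue 4EHP, was the steadiest member with 57.0 to 67.9. EIF4E3 was low, at 3.16, 3.82 and 2.58 in space_microg, 3.22 and 2.64 in space_1g, and 2.37, 2.03 and 1.47 in ground. All 5 flown libraries of EIF4E3 lay above all ground libraries, and it was the only member for which both flight groups did so. The share of all genes for which both did was not computed. Taken separately, space_microg lay wholly above ground in 7.88% of all genes and space_1g in 4.94%.

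EIF4G1, the main scaffold of eIF4F, was 581.1, 386.9 and 444.1 in space_microg, 615.7 and 475.0 in space_1g, and 555.2, 481.7 and 704.4 in ground. EIF4G2 (DAP5), which lacks the site for eIF4E, was 977.2 to 1125 in space_microg, 1042 to 1206 in space_1g and 932.1 to 1294 in ground, and EIF4G3 ranged from 202.2 to 260.3 over all libraries. None of the 3 scaffolds separated the groups. The repressors that keep eIF4E from eIF4G behaved unlike each other. EIF4EBP1 was 68.1, 47.3 and 66.0 in space_microg, 113.8 and 59.4 in space_1g, and 47.4, 39.2 and 160.4 in ground, so that space_1g replicate 1 and ground replicate 3 stood well above the other 6. EIF4EBP2 held 104.2 to 132.2, with ground replicate 3 lowest. EIF4ENIF1, which carries eIF4E to the nucleus, was 39.0 to 45.6 in space_microg, 39.9 and 42.3 in space_1g, and 42.4 to 49.0 in ground.

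EIF5A, which helps ribosomes past proline runs, was 139.5, 113.6 and 207.5 in space_microg, 113.7 and 163.5 in space_1g, and 122.4, 102.2 and 111.1 in ground. Its paralogue EIF5A2 was 15.3, 18.7 and 17.6 in space_microg, 9.785 and 17.3 in space_1g, and 12.2, 11.9 and 12.7 in ground. EIF5A2 lay above ground in every space_microg library (0.45 ± 0.23), EIF5A did not, and for EIF5A2 the 0.37 ± 0.25 against space_1g became -0.016 without space_1g replicate 1. EIF6, which keeps ribosomal subunits apart, was 88.4, 78.1 and 102.1 in space_microg, 119.7 and 80.1 in space_1g, and 68.4, 68.3 and 118.9 in ground. It was thus highest in the same 2 libraries as EIF5.

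In elongation, EEF1B2, a subunit of the exchange factor for eEF1A, had the smallest unadjusted p of the family in space_microg against ground among members above 5 scaled CPM. It was 203.4, 260.5 and 323.3 in space_microg, 161.9 and 230.3 in space_1g, and 193.1, 147.0 and 165.8 in ground. Every space_microg library lay above every ground library, by 0.62 ± 0.22 (limma, adjusted p = 0.866), and the difference from space_1g was 0.42 ± 0.24 with overlap. Leaving out single libraries gave 0.46 to 0.79 against ground. Against space_1g it gave 0.16 without space_1g replicate 1 and 0.67 without space_1g replicate 2.

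EEF1A1 was 6769, 9305 and 10795 in space_microg, 5704 and 8385 in space_1g, and 6829, 6866 and 6722 in ground. The ground values lay close together, and space_microg replicate 1 lay among them while replicates 2 and 3 lay above. EEF1A2, the muscle and neuron form, was 9.43, 9.60 and 19.6 in space_microg, 13.7 and 15.1 in space_1g, and 7.54, 9.92 and 30.8 in ground, and ground held both its lowest and its highest library. EEF1D ranged from 222.8 to 377.6 and EEF1E1 from 11.4 to 21.1.

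EEF2, the translocase, was 2026, 1611 and 2600 in space_microg, 2045 and 2007 in space_1g, and 1690, 1646 and 2405 in ground, with full overlap. Its inhibitory kinase EEF2K was 75.5, 69.5 and 68.1 in space_microg, 49.4 and 76.2 in space_1g, and 79.6, 80.1 and 62.7 in ground. The -0.26 ± 0.21 of EEF2K between space_1g and ground became 0.048 without space_1g replicate 1. The selenocysteine factor gene EEFSEC had 13.8 to 27.6 and the methyltransferase genes EEF2KMT and EEF1AKMT1 had 7.27 to 17.8 and 4.78 to 7.17.

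In the lists of neighbouring functions, 0 genes were called in any comparison, and the counts below are of directions. Of all genes, 47.0% were higher in space_microg than in ground, 51.2% in space_1g than in ground and 46.6% in space_microg than in space_1g. The first group lay wholly above the second in 7.88%, 4.94% and 7.24% of all genes in the same order. The share with space_microg above the other 5 libraries was not computed. The lists are small and none was tested as a set. Of 10 termination and recycling genes, 8 were higher in space_microg than in ground with a median of 0.153. The named pair was DENR, which helps to recycle small subunits, with 0.38 ± 0.13 and no overlap, and HBS1L, a rescue GTPase, with 0.18 ± 0.13, or 0.10 without space_microg replicate 2. DENR stood at 86.1, 95.7 and 86.9 in space_microg, 70.7 and 75.2 in space_1g, and 74.3, 69.8 and 62.7 in ground, and all space_microg values lay above the other 5 libraries.

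Of 8 poly(A)-binding genes and partners, 6 were higher in space_microg than in ground. PAN2, a deadenylase subunit, was lower without overlap, at -0.51 ± 0.18, as 6.53% of all genes were without overlap. Both space_1g libraries of PAN2 also lay below ground, though the higher, 86.6, came close to the lowest ground value, 87.2. PABPC1L was at -0.48 ± 0.30 with overlap, or -0.16 without space_microg replicate 3. PABPC1, which joins the poly(A) tail to eIF4G, was 0.43 ± 0.20 higher in space_1g than in ground without overlap, and PABPC4 0.26 ± 0.14. These were 0.27 for PABPC1 without ground replicate 3 and 0.16 for PABPC4 without space_1g replicate 1. Of 21 genes of mTORC1 and its regulators, 8 were higher and 13 lower in space_microg than in ground (median -0.055), and 6 and 15 against space_1g (median -0.118). The inhibitor TSC2 had -0.36 ± 0.17 and -0.40 ± 0.19 in these, AKT1S1, an mTORC1 inhibitor, had -0.40 ± 0.19 against ground, and PDCD4, an inhibitor of eIF4A, 0.67 ± 0.30 against space_1g. Without space_1g replicate 1, TSC2 had -0.24 and PDCD4 0.23 against space_1g.

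Of 11 genes that make hypusine on eIF5A or diphthamide on eEF2, 6 were higher and 5 lower in space_microg than in ground. DPH6, the diphthamide ligase, had 10.48, 14.01 and 12.1 in space_microg, 5.10 and 8.42 in space_1g, and 4.77, 7.21 and 6.96 in ground. Its space_microg values lay above the other 5 libraries, by 0.86 ± 0.25 against ground (limma, adjusted p = 0.866) and 0.79 ± 0.28 against space_1g (adjusted p = 0.912), the latter 0.48 without space_1g replicate 1. DNAJC24, a chaperone of the same pathway, had 0.41 ± 0.19 against ground.

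The 2 kinases of eIF4E, MKNK1 and MKNK2, had -0.045 ± 0.16 and -0.52 ± 0.43 in space_microg against ground, and for MKNK2 this was -0.10 without ground replicate 3. MKNK2 stood at 383.0 in space_1g replicate 1 and 433 in ground replicate 3, and at 124.2 to 206.8 in the other 6 libraries. Of 10 genes of the eIF2 alpha phosphatase and the integrated stress response, 8 were higher in space_1g than in ground (median 0.415) and 7 lower in space_microg than in space_1g (median -0.400). TRIB3 and DDIT3, targets of that response, stood at 316.9 and 138.1 in space_1g replicate 1. They stood at 363.5 and 130.9 in ground replicate 3, against 28.97 to 133.9 and 31.2 to 50.3 elsewhere. Their differences between space_1g and ground were 1.03 ± 0.96 and 0.54 ± 0.65, and 0.097 and -0.30 without space_1g replicate 1. The medians of this list were not computed without that library. Of 9 mitochondrial translation factors, 6 were higher in space_microg than in ground with a median of 0.076. Of the 13 endothelial markers, 11 were lower in space_microg than in ground (median -0.37) and 12 in space_1g (median -0.40), and their part in the differences of the translation factors was not tested.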

How the data were processed

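RNA-seq was run on 8 libraries, prepared with a strand-preserving total RNA kit that removes ribosomal RNA, per the labels' protocols. The submitters' processing notes name CASAVA 1.8.2, FastQC, STAR 2.5.3, featureCounts, edgeR and hg38/GRCh38 without their roles, and the sources used here do not give the strand setting. The deposited values are normalised signal, called CPM per the labels. In 100% of values they were whole multiples of 1 read within 1e-06 read, and edgeR's TMM factors from these reads equalled the deposited scaling. Depth was 24248964 to 35388757 reads. Replicate pairs differed beyond counting noise (chi-square per degree of freedom 19.4 to 205), so all were kept.

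The test was limma 3.58.1 (R 4.3.3) on log2(value + 1), eBayes with a mean trend, all 8 libraries in 1 fit, two-sided, genes with at least 1 in at least 2 libraries (16103 kept, 50 removed), Benjamini-Hochberg at 0.05. Differences are on the log2(value + 1) scale and understate those of low genes. Alternatives were a pseudocount of 0.25 or 4, filters of 0 or 5, plain-total, median-of-ratios and quantile scaling, 2 groups only, no trend, a replicate block, array weights, edgeR 4.0.16 and DESeq2 1.42.0 on the recovered reads, and each library left out. Scripts were tested on simulated data. Exon lengths were unions over coding transcripts of GENCODE v29.

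Members and lists were chosen with earlier results of these data known. Members were named by rule: per comparison the 8 with the smallest p and a mean of at least 5, the most abundant of each role, paralogue sets, all eIF2 alpha kinases, and the 5 most and 5 least variable; other lists gave up to 2 genes per comparison. Not every gene so chosen is named in the text. Other members are given as ranges or were chosen after their values were seen. The oligopyrimidine class and leaving out the libraries that stood apart together were added after seeing the data.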

Additional observations from a re-analysis of the deposited data

How the results depend on the processing

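No member was called under any alternative run. In space_microg against ground, array weights called 615 genes, with a warning that the weights had not converged, and DESeq2 called 3, where limma, edgeR and the other alternatives called 0. Leaving out each library gave medians of the members from -0.012 to 0.188 in space_microg against ground, from -0.034 to 0.148 in space_1g against ground, and from -0.0039 to 0.084 in space_microg against space_1g. Without space_1g replicate 1 and ground replicate 3 together, a choice made after seeing the data, the first was 0.188. For the oligopyrimidine class, leaving out single libraries gave 0.107 to 0.298, -0.023 to 0.163 and 0.088 to 0.306 in the same order. Without both libraries the second was 0.231, with space_1g replicate 2 alone in its group. Other scalings gave 0.222 to 0.242, 0.021 to 0.115 and 0.135 to 0.152.

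Of 66 gene differences named by rule, each under 22 alternatives, 29 of 1452 values had the other sign. With array weights these were NCK1 (-0.018) and PPP1R15A (0.34) in space_microg against ground, where DPH6 passed the threshold (1.11, adjusted p = 0.0199, over alternatives 0.0199 to 0.999). Without both libraries they were NCK1 (-0.059) and PPP1R15A (0.37) in space_microg against ground, TRMT112 (0.068), RRAGC (-0.058), MKNK1 (-0.11) and MKNK2 (-0.15) in space_1g against ground, and EIF5A2 (-0.016), MKNK2 (0.044), MKNK1 (0.014) and DDIT3 (0.081) in space_microg against space_1g. Leaving out single libraries gave, in space_microg against ground, -0.092 to 0.033 for MKNK1, -0.059 to 0.25 for NCK1 and -0.72 to 0.37 for PPP1R15A. In space_1g against ground it gave -0.57 to 0.048 for EEF2K, -0.38 to 0.038 for TRMT112, -0.88 to 0.0090 for PDCD4, -0.059 to 0.13 for MKNK1, -0.56 to 0.66 for MKNK2 and -0.30 to 1.38 for DDIT3. In space_microg against space_1g it gave -0.016 to 0.75 for EIF5A2, -1.17 to 0.044 for MKNK2, -0.18 to 0.014 for MKNK1 and -1.59 to 0.081 for DDIT3. The cause was not tested. For named members given by level only, 55 of 90 differences changed sign at least once.

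Replicate numbers were not taken to pair the samples, since same-numbered space_microg and ground libraries had correlations of deviations of -0.40, 0.56 and 0.050. They were -0.68 and 0.60 for space_1g and ground, and 0.68 and 0.20 for space_microg and space_1g, which share only 2 numbers. The deviations of 2 space_1g libraries from their mean mirror each other, so these values cannot show whether the numbers pair. With the replicate block, 0 genes were called in each comparison and 1013, 759 and 850 had an unadjusted p of 0.05, against 696, 249 and 212 without it, and the members' medians were 0.072, 0.124 and -0.028. With 2 and 3 libraries a group, replicates differed beyond counting noise (chi-square per degree of freedom 19.4 to 205). How far depth limited what could be called was not tested.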

Other observations

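The pseudogene rows left out of the family carried few reads beside their parents. The 7 EEF1A1 pseudogene rows summed to 58.3 to 90.4 scaled CPM, which was 0.743% to 1.10% of EEF1A1. The 3 EIF4B pseudogene rows summed to 2.64 to 6.94, or 0.584% to 1.15% of EIF4B, and were lowest in ground replicate 3, where EIF4B had its second lowest value. The EIF3E pseudogene row held 0.119% to 0.646% of EIF3E. The sources used here do not say how reads that match both a gene and its pseudogenes were assigned, so these shares are as counted by the authors.

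Ground replicate 3 held the highest value of 26 of 59 members and ground replicate 2 the lowest value of 19. Space_microg replicate 3 held the highest value of 14 members and space_1g replicate 1 the lowest of 14. Space_microg replicate 1 held the highest value of 0 members and the lowest of 1. The shares of all genes with their extremes in each library were not computed. Ground replicate 3 and space_1g replicate 1 stood apart over all genes too, so these counts cannot be read as a trait of the members.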
